A study of Homo sapiens with 6 samples.

Results

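miR-221 and miR-222 are a pair of microRNAs (miRNAs) cut from neighbouring hairpins on the X chromosome, each of which can give a 5p arm and a 3p arm. All rows of the deposited table whose name begins with hsa-miR-221- or hsa-miR-222- were taken. This gave 4 of the 413 listed miRNAs, namely hsa-miR-221-3p, hsa-miR-221-5p, hsa-miR-222-3p and hsa-miR-222-5p, written without the species prefix from here on. The cells were MDA-MB-231, a human line established from a triple-negative breast cancer and used as a basal-like, invasive model. Small RNA was sequenced from vehicle-treated cells (n = 3) and from cells given 2 µM Withaferin A (WA), a steroidal lactone of Withania somnifera, for 24 h (n = 3). The study's methods name DMSO as the vehicle, whereas the labels call these cells control and without treatment. The comparison asks which miRNAs differ in level after WA exposure.

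A miRNA guides an Argonaute protein to messenger RNAs that pair with its seed, bases 2 to 8, and lowers their stability and translation. miR-221-3p and miR-222-3p share a seed and therefore a large part of their targets, among them the cell cycle inhibitors CDKN1B (p27) and CDKN1C (p57), the protease inhibitor TIMP3, the apoptosis inducer BBC3 (PUMA) and the estrogen receptor gene ESR1. The pair is known for its high level in basal-like, estrogen receptor-negative breast cancer cells, where it favours proliferation and a mesenchymal state. The 5p arms are the passenger strands, which are mostly degraded after the hairpin is cut.

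The mature sequences are shown because the shared seed, in capitals, is what defines the pair. RefSeq entries in GRCh38.p14 were matched for 3 of the 4 members, read 5′ to 3′.

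miR-221-3p: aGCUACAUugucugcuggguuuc

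miR-222-3p: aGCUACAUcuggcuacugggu

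miR-222-5p: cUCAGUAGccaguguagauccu

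The seed GCUACAU was found in 2 of the 2370 mature human miRNAs of the RefSeq table, which are these 3p arms. The first 8 bases are the same in both, and 11 of 21 positions agree when the sequences are aligned from base 1 without gaps, so full-length reads of one 3p arm differ from the other over most of the second part. The seed of miR-222-5p, UCAGUAG, was found in 1 entry, its own.

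The hairpins are shown with the mature arms of the table in capitals, to place the arms that are compared below.

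MIR221: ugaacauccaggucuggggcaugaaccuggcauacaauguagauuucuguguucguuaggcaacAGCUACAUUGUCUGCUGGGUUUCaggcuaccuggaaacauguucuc

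MIR222: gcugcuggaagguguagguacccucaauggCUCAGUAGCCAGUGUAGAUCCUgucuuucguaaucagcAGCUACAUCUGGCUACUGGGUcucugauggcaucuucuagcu

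MIR221 (ENSG00000207870) lies on the minus strand at chrX:45746157-45746266, and miR-221-3p takes its bases 65 to 87. MIR222 (ENSG00000207725) lies on the same strand at chrX:45747015-45747124, 748 bases away, with miR-222-5p at bases 31 to 52 and miR-222-3p at bases 69 to 89. In GENCODE release 44 both hairpins are inside the long noncoding RNA gene MIR222HG (ENSG00000270069, chrX:45745210-45770274). Of its 4 transcripts, 1 spans MIR221 and 1 spans MIR222, each with the hairpin in an intron. Whether these are the same transcript was not checked. An exon of the gene overlaps 24 bases of MIR221 in 1 transcript that does not span the whole hairpin, and no exon overlaps MIR222.

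The deposited value of a miRNA is its number of reads over the library's size factor, and is called the normalized value. Within a library all values (100%) are multiples of 1 step, which is taken as 1 read. So counted, the vehicle libraries held 710878 to 4778066 listed reads and the WA libraries 156442 to 2232934. The paper counted more known miRNAs in each group, so shares, ranks and percentages here refer to the listed miRNAs only. It reports 413 as expressed in both groups and counts these as differentially expressed. Some listed miRNAs, such as miR-504-5p, were nevertheless at 0 in each WA library. Across all 413 miRNAs the Pearson correlation of log2(normalized value + 1) was 0.987 between vehicle replicates 2 and 3 and 0.964 between WA replicates 1 and 2. Vehicle replicate 1 stood apart from its group (0.785 and 0.792), and WA replicate 3 stood further apart (0.630 and 0.641). WA replicate 3 correlated more highly with vehicle replicates 1 to 3 (0.772, 0.797 and 0.774) than with its own group. The fold changes and ratios of the pair are given with and without vehicle replicate 1 and WA replicate 3. Values are relative within a library, so an amount per cell cannot be told from them. The study calls the replicates independent, the labels do not say whether they were separate cultures, and the p-values measure the spread between these libraries.

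miR-221-3p was among the most abundant miRNAs. In vehicle replicates 1 to 3 its normalized value was 62289, 13433 and 10869. After WA, replicates 1 to 3 had 19948, 19091 and 169488. The groups overlapped, since vehicle replicate 1 lay above WA replicates 1 and 2, and in each group a single library lay far above the other two. Its share of the listed reads was 6.47%, 0.984% and 0.847% without WA and 2.20%, 1.89% and 10.1% with WA. By reads it ranked 2, 21 and 22 among the 413 miRNAs without WA, against 12, 13 and 2 with WA.

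For miR-222-3p, its seed partner, the vehicle libraries gave 56598, 11623 and 11983. The WA libraries gave 8673, 11181 and 37449.9. The groups overlapped here too, and vehicle replicate 1 and WA replicate 3 were again the highest libraries, but their order was the opposite of that for miR-221-3p. The share of listed reads was 5.88%, 0.852% and 0.934% without WA and 0.956%, 1.11% and 2.23% with WA. Together the 3p arms made up 12.3%, 1.84% and 1.78% of the listed reads in the vehicle libraries. They made up 3.16%, 3.00% and 12.3% of the listed reads in the WA libraries.

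The passenger arms were much lower. Without WA, miR-221-5p had normalized values of 1220.3, 962 and 698. With WA these were 725, 997 and 5619, so that WA replicates 1 and 2 lay inside the vehicle range. miR-222-5p had 33.9, 43.7 and 48.3 without WA and 58.0, 35.7 and 139 with WA, and the groups again overlapped. Few reads stand behind this arm, 25, 153 and 158 without WA and 10, 20 and 185 with WA. For the 10 reads of WA replicate 1 the share of listed reads was 0.00639% with a 95% Wilson interval from 0.00347% to 0.0118%, which also holds the shares of the other libraries except vehicle replicate 2 and covers counting error only. WA replicate 3 was the highest WA library for every member.

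**Figure D1:**
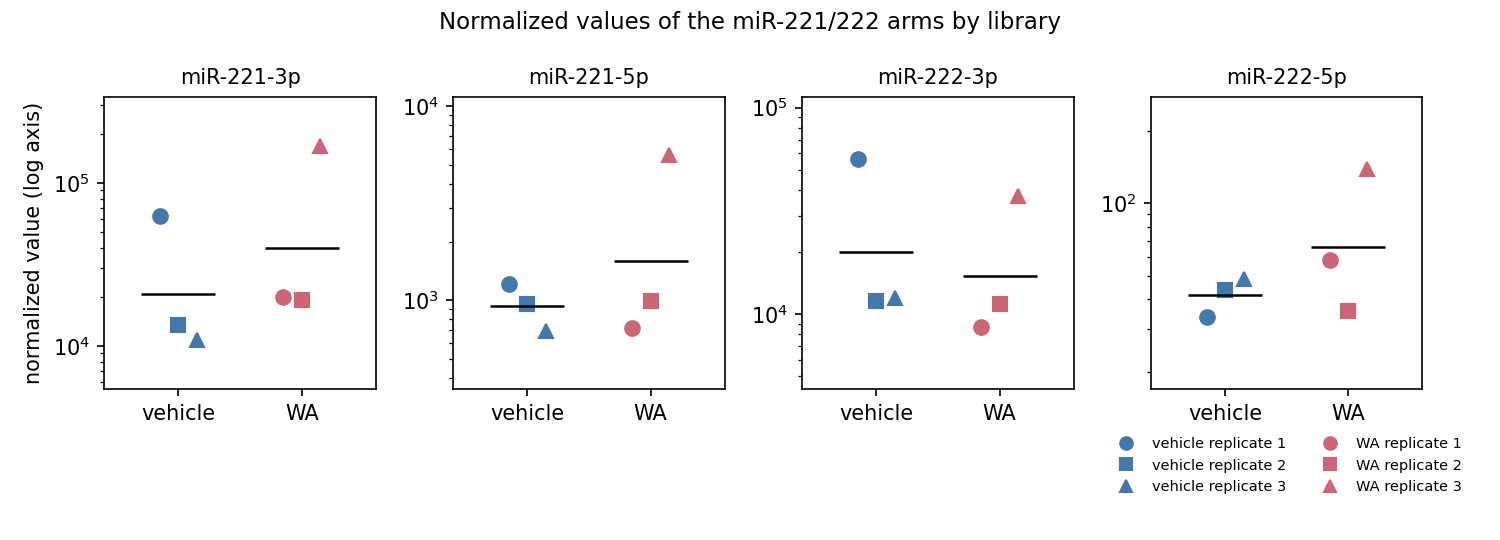
Normalized values (log axis, with a range of its own in each panel) of the 4 arms in the 3 vehicle and 3 WA libraries, marked by replicate, with black lines at the group mean on the log2(value + 1) scale. The groups overlap in every panel, and WA replicate 3 is the highest WA library throughout.

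For none of the 4 members did the groups differ by more than the spread between replicates. The test was limma on log2(normalized value + 1), two-sided and adjusted by Benjamini-Hochberg over the 327 miRNAs that reached 10 in 3 or more libraries, a filter that all 4 members passed. On this scale the change of low values is understated. miR-221-3p averaged 28863 ± 28976 (SD, n = 3) without and 69509 ± 86585 (SD, n = 3) with WA. This gave a log2 fold change of 0.94 (standard error 1.15, 95% interval -1.74 to 3.63) with a limma adjusted p of 0.606. miR-222-3p averaged 26735 ± 25863 (SD, n = 3) without and 19101 ± 15940 (SD, n = 3) with WA, a log2 fold change of -0.37 (standard error 0.945, 95% interval -2.58 to 1.83) with a limma adjusted p of 0.794. The log2 fold change was 0.77 (95% interval -1.32 to 2.85, limma adjusted p 0.597) for miR-221-5p and 0.66 (95% interval -1.96 to 3.28, limma adjusted p 0.696) for miR-222-5p. These intervals reach beyond a log2 fold change of 1 in either direction for each arm, so neither a rise nor a fall of that size could be told from no difference with 3 libraries a group.

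Over all 327 tested miRNAs, 5.5% had a limma adjusted p under 0.05, and the groups of normalized values did not overlap for 27.2%. The count of members was 0 of 4 by either measure. At an unadjusted limma p under 0.05 it was also 0 of 4, beside 26.3% of the tested miRNAs. The median log2 fold change of the tested miRNAs was -0.91, and relative to it the 4 members lay higher by 1.85 (miR-221-3p), 1.68 (miR-221-5p), 0.54 (miR-222-3p) and 1.57 (miR-222-5p). Upper-quartile scaling moved the median to -0.66, and miR-221-3p and miR-222-3p then lay 1.87 and 0.56 above it. Among the 173 miRNAs at 10 or more in every library the median was -0.10, so it depends on the filter. The place of miR-222-3p relative to the median turned to -0.27 there and to -0.16 without WA replicate 3. In the same settings miR-221-3p lay 1.04 and 0.76 above the median.

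**Figure D2:**
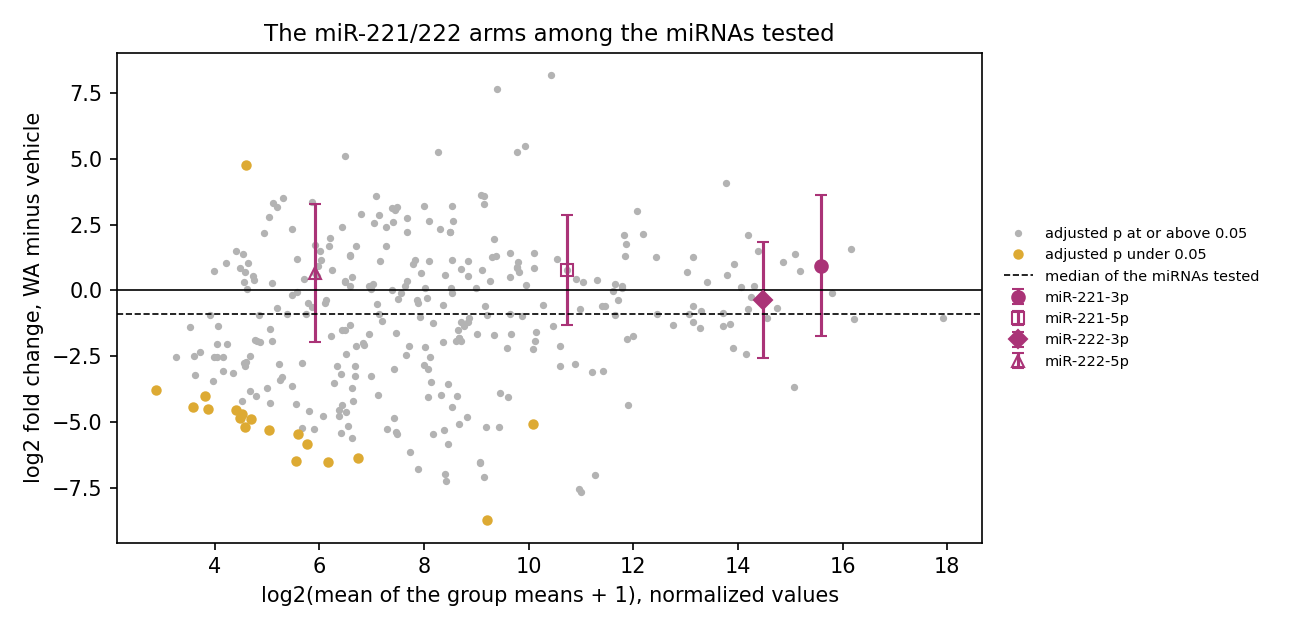
Log2 fold change (WA minus vehicle) against the log2 of the mean normalized value for the 327 miRNAs tested, with the 18 at a limma adjusted p under 0.05 in yellow, the median of all as a dashed line, and the 4 members with 95% confidence intervals. The 3p arms lie at the abundant end, and all 4 intervals cross 0.

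The direction depended on single libraries. Without WA replicate 3 the log2 fold change was -0.10 for miR-221-3p and -0.14 for miR-221-5p, and it was -1.02 for miR-222-3p and 0.13 for miR-222-5p. Without vehicle replicate 1 it was 1.73 for miR-221-3p, 0.38 for miR-222-3p, 0.96 for miR-221-5p and 0.52 for miR-222-5p. Without WA replicate 1 that of miR-222-3p was 0.04. No member had a limma adjusted p under 0.05 with any single library left out. With both vehicle replicate 1 and WA replicate 3 left out, which was chosen after the data were seen, the log2 fold change was 0.69 for miR-221-3p with a limma adjusted p of 0.0250 and -0.26 for miR-222-3p with a limma adjusted p of 0.267. In that fit of 2 libraries against 2, 71.9% of the tested miRNAs were called, so the call for miR-221-3p does not set it apart from the rest.

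**Figure D3:**
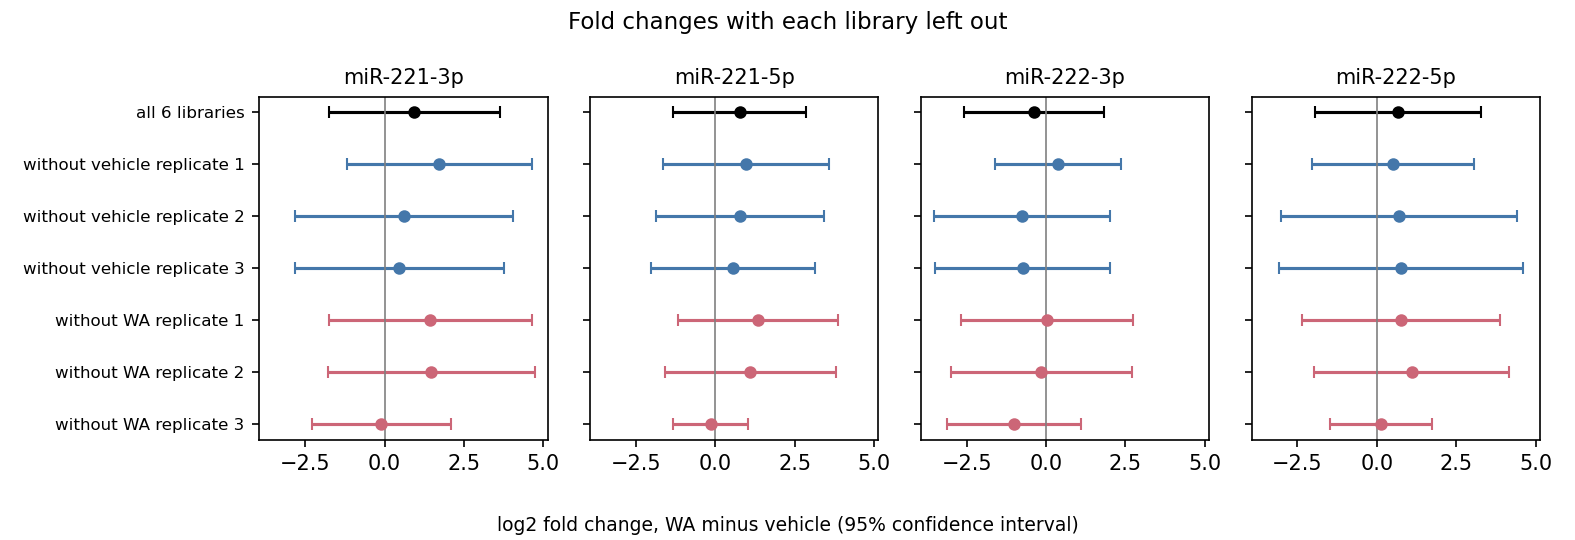
Log2 fold change (WA minus vehicle, limma) of each arm with 95% confidence intervals, with all 6 libraries (black) and with each vehicle (blue) or WA (red) library left out. Every interval crosses 0, and the estimates for miR-221-3p and miR-221-5p drop to -0.10 and -0.14 without WA replicate 3.

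The balance between the partners was compared within each library, where the size factor cancels. For every miR-222-3p read there were 1.10, 1.16 and 0.907 miR-221-3p reads without WA. With WA there were 2.30, 1.71 and 4.53. The groups did not overlap, with near-equal reads of both 3p arms in each vehicle library and more miR-221-3p in each WA library. The ratio compares reads and not molecules.

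As a share of the reads of both 3p arms, miR-221-3p held 52.4%, 53.6% and 47.6% without WA and 69.7%, 63.1% and 81.9% with WA. The widest 95% Wilson interval, that of WA replicate 1 with 4937 reads of the pair, ran from 68.4% to 71.0%, so counting error was small beside the spread between libraries. The mean log2 ratio was 0.07 ± 0.18 without and 1.38 ± 0.72 with WA (SD, n = 3). The difference was 1.32 on the log2 scale, or 2.49-fold. A two-sided exact permutation test gave p = 0.1, below which 3 libraries against 3 cannot go. Leaving out single libraries gave 0.92 to 1.62, the lowest without WA replicate 3.

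A within-library ratio that separates the groups was common in these data. Of all 53301 pairs of tested miRNAs, 30.5% had ratios that did not overlap between the groups. Among the 820 pairs of the 41 miRNAs at 1000 or more in every library, to which both 3p arms belong, it was 18.9%, and 40.0% had a mean difference at least as large as that of miR-221-3p and miR-222-3p. The passenger arms gave no such separation. Few miR-222-5p reads stand behind their ratio (25 in vehicle replicate 1 and 10 in WA replicate 1), which limits what it can show. For every miR-222-5p read there were 36.0, 22.0 and 14.5 miR-221-5p reads without WA and 12.5, 27.9 and 40.4 with WA, and the groups overlapped (exact permutation test, two-sided p = 0.9).

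**Figure D4:**
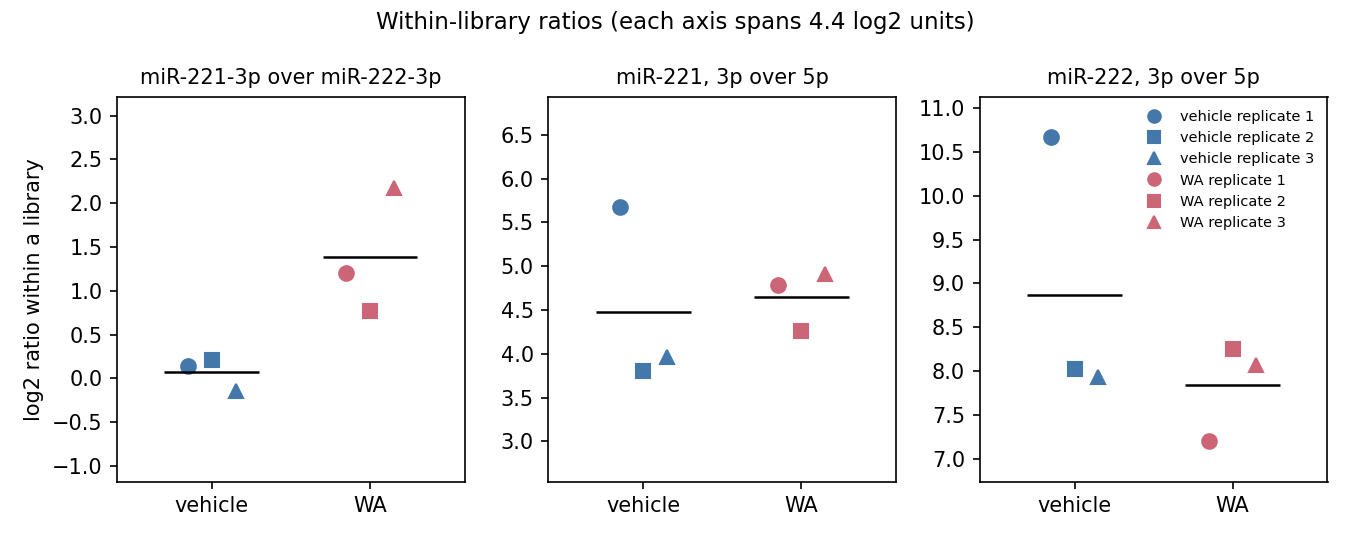
Log2 ratios within each library of miR-221-3p over miR-222-3p and of the 3p over the 5p arm of each hairpin, in vehicle and WA libraries marked by replicate, with black lines at the group means. The first ratio lies between 0.77 and 2.18 in the WA libraries, above the highest vehicle library at 0.21, whereas both arm ratios overlap and are highest in vehicle replicate 1.

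The arms of a hairpin start from the same precursor, and the ratio of 3p to 5p reads describes which strand was kept. For miR-221 it was 51.0, 14.0 and 15.6 without WA. With WA it was 27.5, 19.1 and 30.2. The WA libraries lay between the vehicle libraries, of which replicate 1 was high. The mean log2 ratio was 4.48 ± 1.04 (SD, n = 3) and 4.65 ± 0.35 (SD, n = 3), a difference of 0.17 (exact permutation test, two-sided p = 0.8). Without vehicle replicate 2 or 3 this difference turned to -0.16 or -0.09.

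For miR-222 the 3p arm was more dominant, with 1671, 266 and 248 reads per 5p read without WA. The WA libraries held 150, 313 and 269, inside or below the range of the vehicle libraries. The mean log2 ratio was 8.87 ± 1.55 without and 7.84 ± 0.56 with WA (SD, n = 3), a difference of -1.03 (exact permutation test, two-sided p = 0.6). It was -0.14 without vehicle replicate 1. Over the 80 hairpins with both arms tested, the groups did not overlap for 26.2%, and they overlapped for both hairpins of the pair. In vehicle-treated cells the mean log2 ratio of 3p to 5p reads of miR-222 ranked 2 and that of miR-221 ranked 13 among the 80. Both ranks include vehicle replicate 1, where each of these ratios was highest, and were not computed without it.

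The miRNAs most correlated with each arm over the libraries were picked as the 3 highest of 326. Their lead over a partner named in advance can come from that choice alone. Over the 6 libraries, which share their size factors, the highest Pearson correlations of log2(normalized value + 1) with miR-221-3p were those of miR-103a-3p (0.989), miR-361-5p (0.980) and let-7e-5p (0.970). miR-222-3p came at rank 17 of 326, at 0.831 with a Spearman correlation of 0.371. miR-221-5p came at rank 10, at 0.905. For miR-222-3p the closest were miR-30c-5p (0.979), miR-181a-5p (0.922) and miR-125a-5p (0.914), and its own passenger arm miR-222-5p came at rank 169, at 0.221. The closest to miR-221-5p were miR-29c-3p (0.993), miR-125b-5p (0.967) and miR-29a-3p (0.963), and the closest to miR-222-5p were miR-17-3p (0.964), miR-28-3p (0.907) and miR-93-3p (0.877). For miR-103a-3p the normalized values were 17157, 8763 and 7366 without WA and 10951, 11810 and 28660 with WA, so that the same 2 libraries were on top as for miR-221-3p.

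In vehicle-treated cells the 3p arms stood side by side at ranks 9 and 10 of the mean normalized value. Directly above were let-7a-5p at 31683 ± 15861 and miR-92a-3p at 30995 ± 13430, and directly below were let-7f-5p at 26068 ± 2229 and miR-423-3p at 25272 ± 8500 (SD, n = 3). With standard deviations of 28976 and 25863 for the 3p arms, these neighbours did not differ beyond their spread. The ranks rest on vehicle replicate 1. Without it the means were 12151 for miR-221-3p and 11803 for miR-222-3p, at ranks 22 and 23.

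Other miRNAs known to target ESR1, to mark the opposite cell state or to come from the same chromosome were counted from lists. Over all tested miRNAs 5.5% passed the limma test after adjustment and 26.3% at an unadjusted p under 0.05. Of 5 miRNAs known to target ESR1, 3 were listed and tested, and 0 passed (0 at an unadjusted p under 0.05). Their median log2 fold change was -0.96, beside -0.91 for all tested miRNAs. miR-22-3p was at 3622 ± 1989 without and 3460 ± 169 with WA (SD, n = 3). Epithelial miRNAs of the miR-200 family repress the mesenchymal state that the pair favours and are known to be low in MDA-MB-231. In vehicle-treated cells their mean normalized values ran from 29.2 for miR-429 to 529 for miR-200b-3p, far under those of the 3p arms. miR-200b-3p was at 1459 in vehicle replicate 1 and at 65.4 and 63.9 in the other two. Of 6 epithelial miRNAs on the list, not all of this family, 4 were listed and tested. These 4 are of the family, and 0 passed the limma test (0 at an unadjusted p under 0.05). The median log2 fold change was -3.63, or -2.54 without vehicle replicate 1, beside -0.91 and -1.13 for all tested miRNAs. All 4 were listed at 0 in WA replicates 1 and 2, where the limit of 3 reads is a normalized value of 17.4 and 5.36, and were above 0 in WA replicate 3, from 48.1 for miR-429 to 642 for miR-200b-3p. Without WA replicate 3 every WA value of the list is a listed 0, and no median fold change is given. The part of this difference between WA libraries in the levels of the pair was not tested.

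Of 39 miRNAs from other X-chromosome hairpins, 35 were listed and 30 tested, and 1 passed the limma test, in the lower direction, beside the 5.5% of all tested miRNAs. This was miR-504-5p, with 28.4, 1122 and 2373 without WA and listed at 0 in each WA library, with a limma adjusted p of 0.0344. The call was lost without any one of vehicle replicates 2 and 3 and WA replicates 1 and 2, where no miRNA was called, and 46 to 52 had an unadjusted limma p under 0.05. At that unadjusted threshold 4 of the 30 passed with all libraries, beside the 26.3% of all tested miRNAs. The median log2 fold change of the 30 was 0.29, beside -0.91 for all tested miRNAs, and ran from -0.10 to 0.73 with single libraries left out. The median of all tested miRNAs depends on the filter. It was -0.10 for the 173 miRNAs at 10 or more in every library, where no median of the list was computed. For 6 of the 30 the groups did not overlap, beside the 27.2% of all tested miRNAs, with 5 lower and 1, miR-532-5p, higher in each WA library. miR-532-5p was at 289 ± 80.5 without and 623 ± 88.3 with WA (SD, n = 3, limma adjusted p 0.330).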

How the data were processed

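The 3 vehicle and 3 WA small RNA libraries of MDA-MB-231 cells were grouped by their treatment label. Per the study's methods, reads were trimmed, aligned with Bowtie to GRCh38.p10, freed of other noncoding RNAs and matched to mature human miRNAs, and the submitters' processing notes name Trim Galore, Bowtie and DESeq2. The rule for reads that match several miRNAs is not given in the sources used here. The authors deposited a signal per miRNA and library, which is reads over a size factor. The log2 fold change, linear ratio, p-value and adjusted p-value of the authors' own DESeq2 comparison were deposited too and were not used. Values lay within 0.02 of whole multiples of each library's step, and read numbers, Wilson intervals and the limit of 3 reads assume that 1 step is 1 read.

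Values were compared with limma 3.58.1 in R 4.3.3 with a variance trend and a pseudocount of 1, unpaired. The code was run on simulated counts in which no library stood apart, so that check does not cover the spread seen here. Ratios within a library were compared by exact permutation tests in Python 3.11.15. Intervals are Wilson intervals. Sequences and coordinates came from RefSeq (GRCh38.p14) and GENCODE release 44.

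The miRNAs named were all rows of both families, the 3 most correlated with each, the 2 above and below the 3p arms in vehicle mean, and from each list the most abundant and any called. Others named, such as those with groups that do not overlap, were picked with their values in view. The members and lists were chosen with earlier results of these data known. The result of 1 list is not reported here.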

Additional observations from a re-analysis of the deposited data

How the results depend on the processing

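Other scalings and pseudocounts of 0.1 and 10 kept the direction and the side of the threshold for all 4 members. The log2 fold changes ran from 0.83 to 1.21 for miR-221-3p and from -0.48 to -0.10 for miR-222-3p. No filter, a filter of 10 in all libraries and the fit without the variance trend cannot change a member's fold change. In these settings the limma adjusted p stayed on the same side of the threshold for all 4 members. No cause was tested for the changes below. With single libraries left out the log2 fold changes ran from -0.10 to 1.73 for miR-221-3p, -0.14 to 1.34 for miR-221-5p and -1.02 to 0.38 for miR-222-3p, which turned in direction, and from 0.13 to 1.10 for miR-222-5p, which did not. The log2 difference of the arm ratio ran from -0.16 to 0.77 for miR-221 and from -1.51 to -0.14 for miR-222, and that of miR-221-3p over miR-222-3p from 0.92 to 1.62. Without both vehicle replicate 1 and WA replicate 3 the log2 fold change was 0.69 for miR-221-3p, now called, and -0.012 for miR-222-5p.

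Over all tested miRNAs 18 were called, and 21 without vehicle replicate 1. The count was 7 with a pseudocount of 0.1 and 7 with 10, 53 with no filter, 0 when all libraries had to reach 10 (29 at an unadjusted limma p under 0.05) and 235 without both of these libraries. With single libraries left out it ran from 0 to 147. It was 147 without WA replicate 3 and 0 without any one of vehicle replicates 2 and 3 and WA replicates 1 and 2, where 46 to 52 had an unadjusted limma p under 0.05, so the call for miR-504-5p was lost there.

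The labels do not say whether same-numbered libraries were paired. Deviations from the group means of same-numbered libraries correlated at -0.07, 0.06 and -0.09, and only vehicle replicate 2 correlated best with its own number. With few libraries and 1 outlying library in each group, these correlations cannot tell whether there was a pairing. With the replicate block 24 miRNAs were called and 0 members. The block cannot change the log2 difference of miR-221-3p over miR-222-3p, which stays at 1.32. A two-sided exact sign-flip test of the same-numbered differences gave p = 0.25, the lowest that so few pairs allow. The edgeR and DESeq2 fits that had been planned were not run, because too few values at 1 step fix the reads. With 156442 listed reads, WA replicate 1 limits what can be said of miR-222-5p.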
